A study of Mus musculus with 30 samples.

Results

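The 9 genes described here are markers of pericytes and vascular smooth muscle cells, the contractile cells that wrap small and large blood vessels. They were chosen by name, Rgs5, Abcc9, Kcnj8, Pdgfrb, Cspg4, Mcam, Acta2, Myh11 and Tagln, and all 9 were among the 19938 genes that could be tested on the arrays. Their RNA was measured in cells sorted as satellite cells (SCs), the stem cells of skeletal muscle, so the labels name neither pericytes nor smooth muscle as the cells collected. The study compared activated SCs (ASCs), taken 36, 60 or 84 hr after injection of barium chloride (BaCl2) into hindlimb muscle, with quiescent SCs (QSCs) of uninjured muscle, and old with young mice.

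The 30 arrays formed 10 groups of 3. In wild-type C57BL6 mice, cells that carried VCAM and lacked CD31, CD45 and Sca1 were collected, and these are called VCAM cells below. They were taken from old mice, aged 22 to 24 months, as ASCs at 60 hr and as QSCs, and from young mice, aged 2 to 3 months, as QSCs and as ASCs at 36, 60 and 84 hr. In young Pax7CreER/+;ROSA26eYFP/+ mice given tamoxifen, which switches on a lasting YFP label in cells that express Pax7 at that time, YFP+ cells were collected as QSCs and at the same 3 times, and these are called YFP cells. All injured groups received BaCl2, and every VCAM group was wild type while every YFP group carried the Cre and reporter alleles and had tamoxifen, so sort, genotype and tamoxifen cannot be told apart. Whether the 3 arrays within a group represent separate mice is not stated in the labels, and p-values then measure only the spread between these arrays.

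Pericytes sit on capillaries and share a developmental lineage with smooth muscle cells of arterioles. Platelet-derived growth factor B released by endothelium recruits them through the receptor that Pdgfrb encodes. Smooth muscle cells build contractile filaments from alpha smooth muscle actin, smooth muscle myosin and transgelin under the transcription factor SRF and its cofactor myocardin, which bind CArG boxes in the promoters of contractile genes. None of these genes is exclusive to the vessel wall: Acta2 and Tagln are also made by activated fibroblasts and myofibroblasts, Pdgfrb by fibroblasts, and Mcam by endothelial cells.

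Each of the 9 genes was read by 1 probe set. Values are log2 intensities, in which a step of 1 is a doubling of signal, and the level of one gene cannot be set against the level of another because probes differ. Array medians lay between 7.03 and 7.16, and r between arrays of a group, taken across genes (not independent observations), was 0.996 to 0.9983. The pooled SD within groups was 0.033 for Acta2, the lowest of the 9, and 0.127 for Myh11, the highest, against a median of 0.1 over all genes. The group means of Rgs5 spanned 4.27 log2 units, those of Abcc9 3.54 and those of Cspg4 0.987, against a median range of 0.61 over all genes. The number of arrays limits the precision. As the samples are bulk RNA, fewer cells of a type and less RNA per cell cannot be told apart.

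In the RefSeq annotation of GRCm38.p6 Kcnj8 (chr6:142564837-142571614) and Abcc9 (chr6:142587862-142702766) are neighbours, 16247 bases apart with 0 annotated genes between them. Cspg4, Mcam and Tagln lie on chromosome 9, Rgs5 on chromosome 1, Acta2 on chromosome 19 and Myh11 on chromosome 16. Promoters of 6 of the 9 genes were in the RefSeq promoter table of that build, of which the 250 bases before the start were searched on both strands. The sequences below are shown because Rgs5 had the widest range of the 9 genes and because the course of Acta2 over the 10 groups was the least like those of the others. Capitals in the Rgs5 sequence mark TATATA, searched as TATAAA or TATATA and present in 15.6% of the 32851 promoters. Capitals in the Acta2 sequences mark a CArG box (CC, 6 letters, GG) with at most 1 of its 6 central letters other than A or T, present in 8.59% of promoters.
Rgs5, chr1:169655251-169655500, plus strand: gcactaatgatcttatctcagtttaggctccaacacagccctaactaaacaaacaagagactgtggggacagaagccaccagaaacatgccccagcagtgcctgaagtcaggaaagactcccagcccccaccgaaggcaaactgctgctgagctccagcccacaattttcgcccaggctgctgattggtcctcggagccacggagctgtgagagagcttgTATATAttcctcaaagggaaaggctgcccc
Acta2, chr19:34255438-34255467, minus strand: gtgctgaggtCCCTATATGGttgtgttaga
Acta2, chr19:34255388-34255417, minus strand: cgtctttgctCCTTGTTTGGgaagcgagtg

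With -1 as the last base before the start, the TATATA of Rgs5 lay at -30 to -25. The elements of Acta2 lay at -84 to -75 and at -34 to -25 from the start in the table, inside the annotated span of the gene. The second of them overlapped TGGGAA, the core letters bound by the Notch effector RBPJ, which occurred in 21.6% of promoters and also in the window of Abcc9. The exact CArG box, with 6 of 6 central letters A or T, was in none of the 6 windows and in 1.47% of promoters, and a MEF2 site was in none of them and in 2.92% of promoters. These motifs were chosen after the sequences had been seen, and a match is a description of letters.

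In young VCAM cells all 9 genes were lower at 60 hr after injury than in QSCs, and 7 of them still were at 84 hr. Rgs5, which encodes a GTPase-activating protein that damps G protein signalling in mural cells, had the largest fall. In QSCs Rgs5 was at 11.89, 11.94 and 11.94, at 36 hr at 10.31, 10.35 and 10.44, at 60 hr at 7.53, 7.63 and 7.81, and at 84 hr at 8.36, 8.30 and 8.39. No array of an injured group overlapped the QSC arrays. The change from QSCs was -1.56 ± 0.05 (SE) at 36 hr, -4.27 ± 0.05 at 60 hr, a 19.3-fold fall, and -3.57 ± 0.05 at 84 hr (limma, Benjamini-Hochberg adjusted p = 6.9e-19, 6.1e-28 and 3.1e-26).

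**Figure D1:**
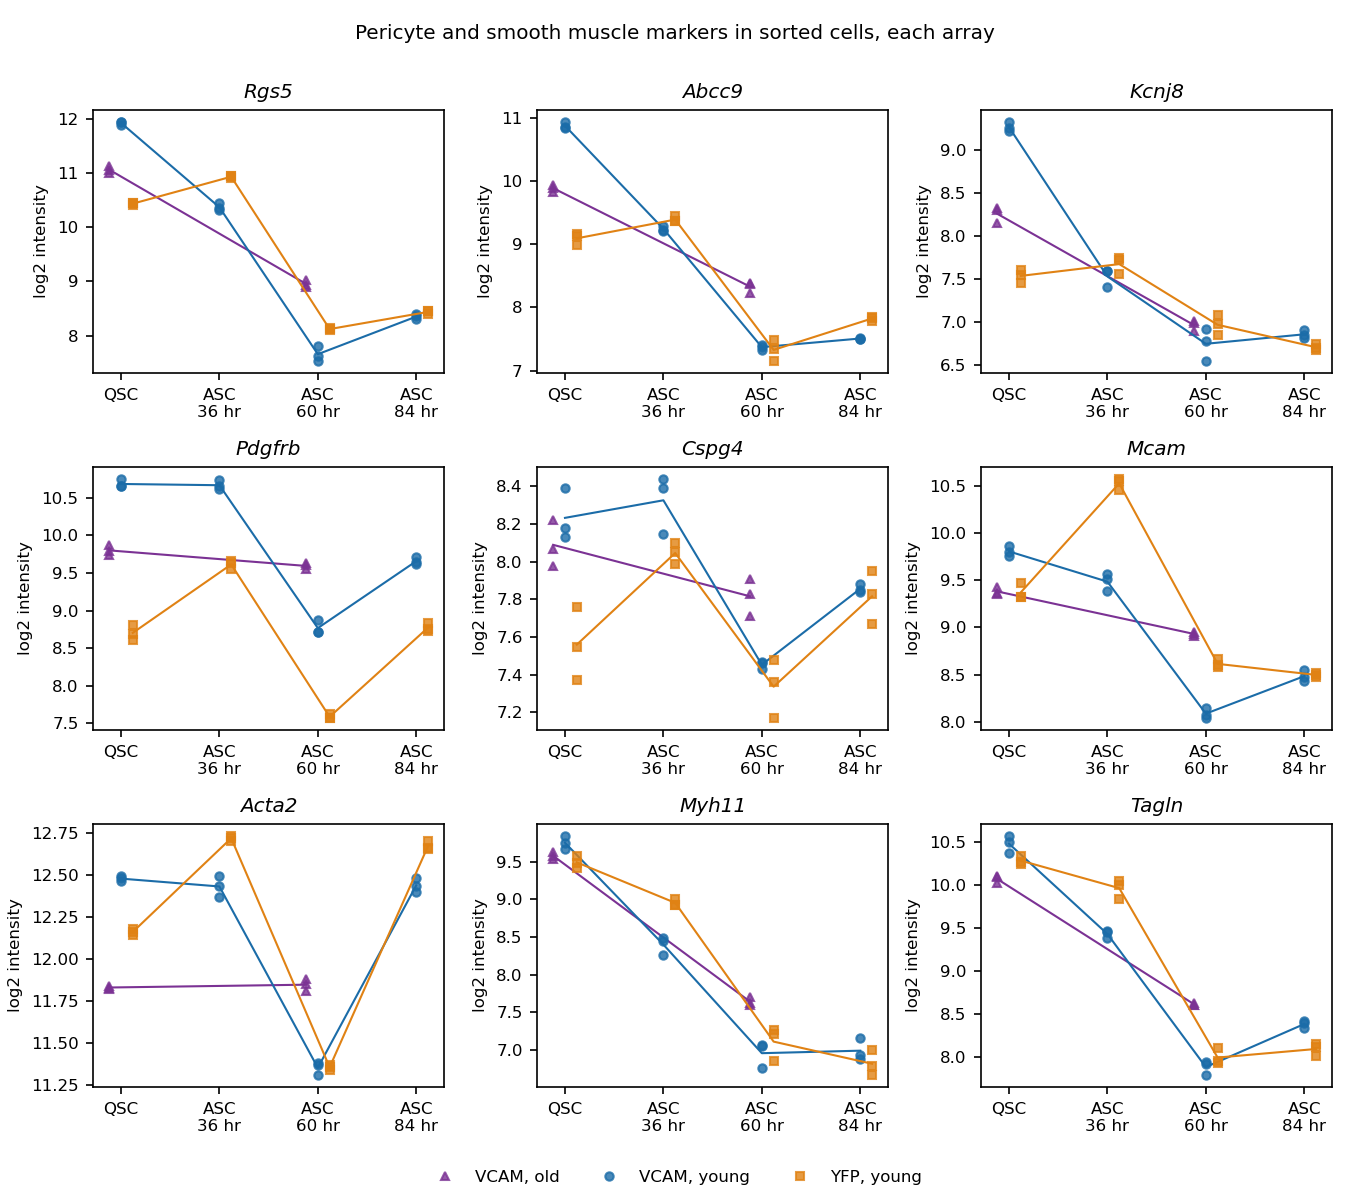
Log2 intensity (y axis) of each of the 9 genes in QSCs and at 36, 60 and 84 hr after injury (x axis). Each point is 1 array and lines join group means, with triangles for old VCAM cells, circles for young VCAM cells and squares for young YFP cells. Rgs5, Abcc9 and Kcnj8 are highest in young VCAM QSCs, Mcam at 36 hr in YFP cells, and Acta2 at 60 hr lies below its level at 84 hr in both sorts.

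Abcc9 and Kcnj8 encode SUR2 and Kir6.1, the regulatory and pore subunits of an ATP-sensitive potassium channel (KATP) found in pericytes and smooth muscle, among other cells. Abcc9 was at 10.83, 10.85 and 10.93 in QSCs, 9.22, 9.21 and 9.29 at 36 hr, 7.32, 7.41 and 7.38 at 60 hr, and 7.50, 7.52 and 7.50 at 84 hr. Kcnj8 was at 9.21, 9.32 and 9.25 in QSCs, 7.59, 7.41 and 7.59 at 36 hr, 6.92, 6.78 and 6.55 at 60 hr, and 6.82, 6.91 and 6.85 at 84 hr. Both subunit genes were thus lower at every time with no overlap with QSCs, and most of the fall of Kcnj8 was present at 36 hr. Abcc9 changed by -1.63 ± 0.06 at 36 hr and by -3.50 ± 0.06 at 60 hr, and Kcnj8 by -1.73 ± 0.08 and -2.51 ± 0.08 (limma, adjusted p at most 1.1e-16). The genes of the other KATP subunits, Kcnj11 (Kir6.2) and Abcc8 (SUR1), had group means of 6.92 to 7.21 and 6.31 to 6.63 and were called in 0 of 21 comparisons.

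The 3 contractile genes did not follow 1 course. Myh11, the smooth muscle myosin heavy chain and the most smooth muscle-restricted of them, was at 9.67, 9.74 and 9.84 in QSCs, 8.26, 8.49 and 8.45 at 36 hr, 7.05, 6.76 and 7.07 at 60 hr, and 6.88, 7.16 and 6.94 at 84 hr. Tagln, which encodes the actin-binding protein transgelin, was at 10.50, 10.37 and 10.57 in QSCs, 9.46, 9.38 and 9.45 at 36 hr, 7.94, 7.92 and 7.79 at 60 hr, and 8.34, 8.39 and 8.42 at 84 hr. Both were lower than in QSCs at each time, and the changes at 60 hr were -2.79 ± 0.10 for Myh11 and -2.60 ± 0.06 for Tagln (limma, adjusted p = 4.1e-19 and 7.9e-23).

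Acta2, alpha smooth muscle actin, was at 12.46, 12.49 and 12.48 in QSCs, 12.37, 12.43 and 12.49 at 36 hr, 11.31, 11.38 and 11.37 at 60 hr, and 12.43, 12.40 and 12.48 at 84 hr. Only the 60 hr arrays were clear of the QSC arrays. The change from QSCs was -1.13 ± 0.04 at 60 hr (limma, adjusted p = 3.3e-19) and -0.04 at 84 hr (95% interval -0.12 to 0.04, adjusted p = 0.36), and between 60 and 84 hr Acta2 was higher by 1.08 ± 0.04 at the later time (adjusted p = 4.3e-17). Pdgfrb showed part of this course. It was at 10.65, 10.65 and 10.75 in QSCs, 10.66, 10.61 and 10.73 at 36 hr, 8.71, 8.71 and 8.88 at 60 hr, and 9.71, 9.62 and 9.64 at 84 hr. Its change from QSCs was -0.02 at 36 hr (95% interval -0.14 to 0.10), -1.91 ± 0.06 at 60 hr and -1.02 ± 0.06 at 84 hr (adjusted p = 0.83, 1.3e-20 and 1.1e-14).

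The other surface proteins, NG2 (Cspg4, a chondroitin sulfate proteoglycan) and CD146 (Mcam, an adhesion molecule of pericytes and endothelium), were both lower at 60 hr. Cspg4 was at 8.18, 8.13 and 8.39 in QSCs, 8.15, 8.44 and 8.39 at 36 hr, 7.46, 7.47 and 7.43 at 60 hr, and 7.84, 7.85 and 7.88 at 84 hr. Mcam was at 9.75, 9.80 and 9.86 in QSCs, 9.38, 9.51 and 9.56 at 36 hr, 8.04, 8.15 and 8.07 at 60 hr, and 8.47, 8.55 and 8.43 at 84 hr. Cspg4 overlapped with QSCs at 36 hr and Mcam did not overlap at any time. At 60 hr Cspg4 fell by 0.78 ± 0.10 and Mcam by 1.71 ± 0.05 (limma, adjusted p = 6.5e-08 and 2.3e-20).

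Counted over the set, 5 of the 9 genes were called lower and 0 higher at 36 hr in young VCAM cells, where a call is an adjusted p under 0.05 and a fold of at least 1.5. Over all genes 13.2% were called higher and 9.72% lower in that comparison, and the median change was -1.05 over the 9 genes and -0.014 over all genes. At 60 hr 9 were lower (16.6% of all genes higher, 12.6% lower), with a median of -2.51, and at 84 hr 7 were lower (16.4% higher, 11.2% lower), with a median of -2.10. The 3 comparisons share the QSC arrays. Between 36 and 60 hr all 9 were lower at 60 hr (6.26% higher, 8.49% lower), by 0.78 for Kcnj8 up to 2.71 for Rgs5. Between 60 and 84 hr Acta2, Pdgfrb and Rgs5 were higher at 84 hr, and 0 were lower (3.22% higher, 0.732% lower), with Pdgfrb at 0.89 ± 0.06 and Rgs5 at 0.70 ± 0.05.

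YFP cells differed from this at 36 hr. There 2 of the 9 genes were called higher than in QSCs and 0 lower (10.1% of all genes higher, 6.14% lower), and the median change of the 9 was 0.48. Mcam was at 9.32, 9.32 and 9.47 in YFP QSCs and at 10.45, 10.57 and 10.55 at 36 hr, then at 8.58, 8.60 and 8.66 at 60 hr and 8.52, 8.50 and 8.47 at 84 hr. Pdgfrb was at 8.61, 8.69 and 8.81 in QSCs, 9.55, 9.63 and 9.66 at 36 hr, 7.57, 7.57 and 7.62 at 60 hr, and 8.84, 8.75 and 8.73 at 84 hr. These were the called rises at 36 hr, of 1.15 ± 0.05 for Mcam and 0.91 ± 0.06 for Pdgfrb (limma, adjusted p = 4.4e-16 and 3.3e-13).

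The other 7 genes changed by less than 1.5-fold at 36 hr in YFP cells. Rgs5 was at 10.45, 10.40 and 10.45 in YFP QSCs, 10.94, 10.90 and 10.95 at 36 hr, 8.10, 8.12 and 8.14 at 60 hr, and 8.45, 8.40 and 8.46 at 84 hr. Its difference at 36 hr, 0.49 ± 0.05, was larger than the spread of the arrays (adjusted p = 1.6e-08) but under the fold threshold. Acta2 was at 12.14, 12.16 and 12.18 in QSCs, 12.72, 12.70 and 12.73 at 36 hr, 11.36, 11.34 and 11.37 at 60 hr, and 12.65, 12.66 and 12.70 at 84 hr. So the 60 hr level of Acta2 was below the 36 and 84 hr levels in this sort too, and the change between 60 and 84 hr was 1.31 ± 0.04 (limma, adjusted p = 3.6e-19). By group mean Pdgfrb and Cspg4, like Acta2, lay above their YFP QSCs at 36 hr, below them at 60 hr and above them at 84 hr. At 84 hr the arrays of Pdgfrb and Cspg4 overlapped with QSCs.

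At 60 hr 7 of the 9 genes were lower than in YFP QSCs (17.2% of all genes higher, 12.8% lower), with a median of -1.11. Myh11 changed by -2.38, Rgs5 by -2.32 and Tagln by -2.29, and the genes that were not called were Kcnj8 at -0.56 and Cspg4 at -0.22. At 84 hr 6 were lower (17% higher, 11.2% lower), with Pdgfrb at 0.07, Cspg4 at 0.26 and Acta2 at 0.51 not called. Between 36 and 60 hr all 9 were lower at 60 hr, as in VCAM cells (8.73% higher, 8.58% lower), and between 60 and 84 hr Acta2 and Pdgfrb were higher at 84 hr (4.66% higher, 2.19% lower), Pdgfrb by 1.18 ± 0.06. Abcc9 was at 8.98, 9.16 and 9.13 in YFP QSCs, 9.44, 9.36 and 9.36 at 36 hr, 7.49, 7.34 and 7.15 at 60 hr and 7.79, 7.85 and 7.83 at 84 hr.

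The remaining genes in YFP cells were Kcnj8, Myh11, Tagln and Cspg4. Kcnj8 was low at each stage, at 7.55, 7.46 and 7.60 in QSCs, 7.72, 7.74 and 7.56 at 36 hr, 6.85, 6.98 and 7.08 at 60 hr, and 6.70, 6.68 and 6.75 at 84 hr, and its 36 hr arrays overlapped the QSC arrays. Myh11 was at 9.48, 9.42 and 9.57 in QSCs, 8.92, 8.93 and 9.01 at 36 hr, 7.21, 6.86 and 7.27 at 60 hr, and 6.79, 6.67 and 7.0 at 84 hr. Tagln was at 10.24, 10.27 and 10.34 in QSCs, 9.84 to 10.05 at 36 hr, 8.10, 7.93 and 7.95 at 60 hr, and 8.15, 8.01 and 8.12 at 84 hr. Both of these contractile genes thus had the larger part of their fall after 36 hr. Cspg4 was at 7.76, 7.55 and 7.37 in QSCs, 7.99, 8.10 and 8.05 at 36 hr, 7.17, 7.48 and 7.36 at 60 hr, and 7.67, 7.83 and 7.95 at 84 hr, so that its 60 and 84 hr arrays each overlapped the QSC arrays.

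**Figure D2:**
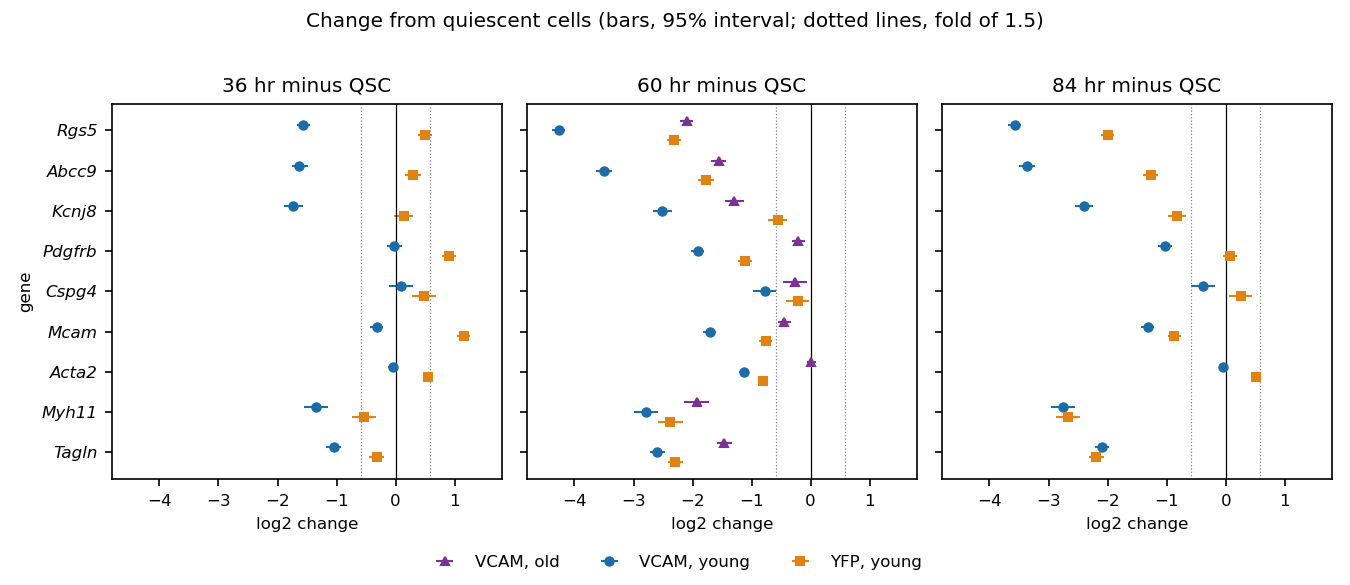
Change in log2 intensity from QSCs of the same sort and age (x axis) for each gene (y axis) at 36, 60 and 84 hr, with triangles for old VCAM cells (60 hr alone), circles for young VCAM cells and squares for YFP cells. Bars are 95% intervals of the limma fit and dotted lines mark a fold of 1.5. At 36 hr Rgs5 lies at -1.56 in VCAM cells and 0.49 in YFP cells, and Acta2 at 60 hr lies at 0.01 in old, -1.13 in young VCAM and -0.81 in YFP cells.

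Set against each other as QSCs, VCAM cells had higher levels than YFP cells of 5 of the 9 genes and lower levels of 0 (1.74% of all genes higher, 1.82% lower). Pdgfrb was at 10.65, 10.65 and 10.75 in VCAM QSCs, against 8.61, 8.69 and 8.81 in YFP QSCs, a 3.94-fold difference. Abcc9 was at 10.83, 10.85 and 10.93 in VCAM QSCs, against 8.98, 9.16 and 9.13 in YFP QSCs, and Kcnj8 was at 9.21, 9.32 and 9.25 in VCAM QSCs, against 7.55, 7.46 and 7.60 in YFP QSCs. The arrays of the sorts did not overlap for these genes. The differences were 1.98 ± 0.06 for Pdgfrb, 1.78 ± 0.06 for Abcc9, 1.73 ± 0.08 for Kcnj8, 1.49 ± 0.05 for Rgs5 and 0.67 ± 0.10 for Cspg4 (limma, adjusted p at most 3.8e-06).

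The contractile genes and Mcam differed less between the sorts at rest. Myh11 was at 9.67, 9.74 and 9.84 in VCAM QSCs, against 9.48, 9.42 and 9.57 in YFP QSCs, and Tagln was at 10.50, 10.37 and 10.57 in VCAM QSCs, against 10.24, 10.27 and 10.34 in YFP QSCs. The differences were 0.26 for Myh11 (95% interval 0.06 to 0.46), 0.20 for Tagln (0.07 to 0.32), 0.32 for Acta2 (0.23 to 0.40) and 0.43 for Mcam (0.33 to 0.54), all under the fold threshold.

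At later times few of the 9 genes were called between the sorts, although 7 passed the adjusted p at 36 hr. Of these Rgs5 (-0.56), Myh11 (-0.56), Tagln (-0.53) and Acta2 (-0.29) were lower in VCAM cells and Cspg4 (0.28) higher, all under the fold. At 36 hr Pdgfrb was higher in VCAM cells, by 1.05, and Mcam was lower, by 1.04 on the log2 scale, with 1 of 9 called in each direction (2.78% of all genes higher, 2.49% lower). Pdgfrb alone was called at 60 hr, at 1.18 (0.557% higher, 0.757% lower), and at 84 hr, at 0.88 (0.446% higher, 1.21% lower). Pdgfrb was therefore the 1 gene of the set that was called higher in VCAM cells than in YFP cells at all 4 stages.

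The response to injury itself was then compared between the sorts as the change from QSCs in VCAM cells minus that in YFP cells. At 36 hr it was more negative in VCAM cells for 8 of 9 genes (4.47% of all genes higher, 4.61% lower), led by Rgs5 at -2.05, Abcc9 at -1.92, Kcnj8 at -1.87 and Mcam at -1.47. At 60 hr 5 genes were called (2.21% higher, 2.78% lower), and at 84 hr 5 (2.71% higher, 3.84% lower). Myh11 and Tagln had differences of -0.41 and -0.31 at 60 hr and of -0.09 and 0.09 at 84 hr and were not called at either time. These differences contain the QSC difference between the sorts given above, since the same QSC arrays enter both.

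Age was compared in VCAM cells, at rest and at 60 hr. In QSCs 5 of the 9 genes were lower in old mice and 0 were higher (3.04% of all genes higher, 4.7% lower), and the median change of the 9 was -0.65. Rgs5 was at 11.12, 11.00 and 11.06 in old QSCs, against 11.89, 11.94 and 11.94 in young QSCs. Kcnj8 was at 8.32, 8.30 and 8.15 in old QSCs, against 9.21, 9.32 and 9.25 in young QSCs. For neither gene did the ages overlap, and the differences were -0.87 ± 0.05 and -1.01 ± 0.08 (limma, adjusted p = 1.5e-12 and 5e-11).

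The other genes lower in old QSCs were Abcc9, at -0.99 ± 0.06, Pdgfrb, at -0.88 ± 0.06, and Acta2, at -0.65 ± 0.04. Acta2 was at 11.83, 11.82 and 11.84 in old QSCs, against 12.46, 12.49 and 12.48 in young QSCs. Abcc9 was at 9.82, 9.94 and 9.89 in old QSCs, against 10.83, 10.85 and 10.93 in young QSCs. Myh11 differed by -0.17 (95% interval -0.38 to 0.03) and Cspg4 by -0.15 (-0.34 to 0.05), neither past the adjusted p (0.18 and 0.27), while Mcam at -0.42 and Tagln at -0.41 passed it without reaching the fold.

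In ASCs at 60 hr the order of the ages was the opposite. Of the 9 genes 6 were higher in old cells and 0 lower (4.75% of all genes higher, 0.657% lower), and the median change was 0.73. Rgs5 was at 8.94, 8.90 and 9.02 in old ASCs, against 7.53, 7.63 and 7.81 in young ASCs, and Pdgfrb was at 9.55, 9.63 and 9.60 in old ASCs, against 8.71, 8.71 and 8.88 in young ASCs. Mcam was at 8.93, 8.91 and 8.95 in old ASCs, against 8.04, 8.15 and 8.07 in young ASCs. Old arrays lay above young arrays for each of these genes.

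The differences at 60 hr were 1.30 ± 0.05 for Rgs5, 0.95 ± 0.06 for Abcc9, 0.84 ± 0.05 for Mcam, 0.83 ± 0.06 for Pdgfrb, 0.73 ± 0.06 for Tagln and 0.68 ± 0.10 for Myh11 (limma, adjusted p at most 4.5e-06). Myh11 was at 7.63, 7.70 and 7.60 in old ASCs, against 7.05, 6.76 and 7.07 in young ASCs, and its call was lost without the second young array, at 0.58. Acta2 was at 11.85, 11.81 and 11.88 in old ASCs, against 11.31, 11.38 and 11.37 in young ASCs, a difference of 0.49 ± 0.04 that passed the adjusted p (1.4e-10) but was under the fold. Kcnj8 was at 6.90, 7.01 and 6.99 in old ASCs, against 6.92, 6.78 and 6.55 in young ASCs, which overlapped.

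The last 2 genes were Tagln and Cspg4, which separated the ages at 60 hr. Tagln was at 8.61, 8.60 and 8.63 in old ASCs, against 7.94, 7.92 and 7.79 in young ASCs, and at 10.10, 10.02 and 10.09 in old QSCs, against 10.50, 10.37 and 10.57 in young QSCs. Cspg4 was at 7.71, 7.91 and 7.83 in old ASCs, against 7.46, 7.47 and 7.43 in young ASCs, and at 7.98, 8.07 and 8.22 in old QSCs, against 8.18, 8.13 and 8.39 in young QSCs. Cspg4 overlapped between the ages at rest and not at 60 hr, where its difference was 0.36 ± 0.10 (adjusted p = 0.0051).

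**Figure D3:**
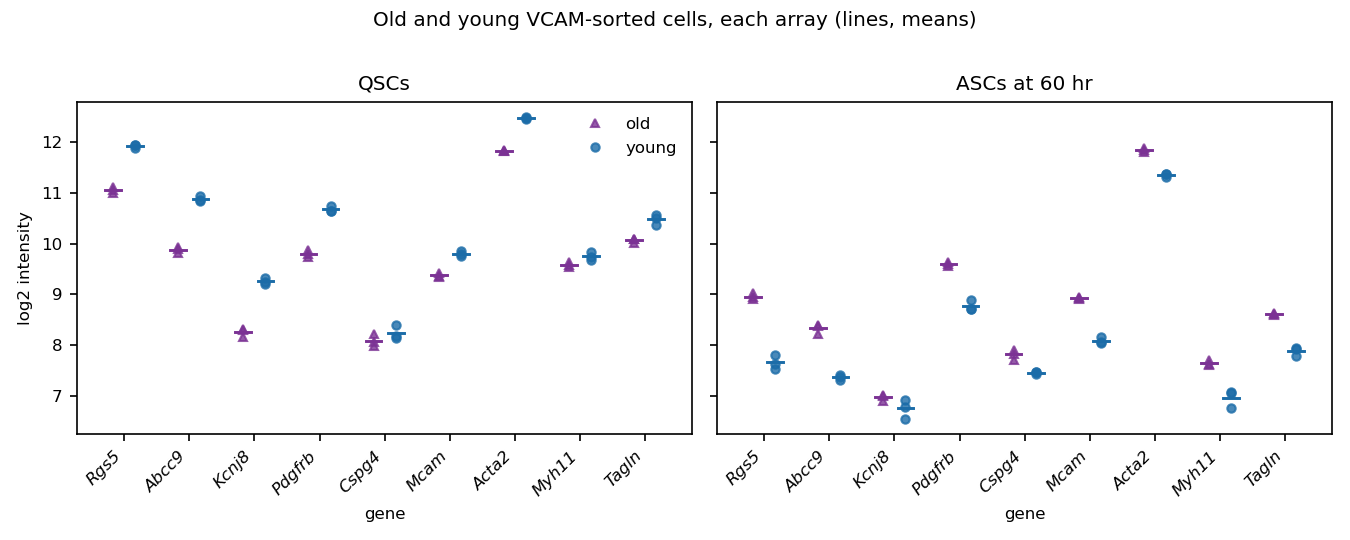
Log2 intensity (y axis) of each gene (x axis) in VCAM cells of old mice (triangles) and young mice (circles), as QSCs on the left and as ASCs at 60 hr on the right. Each point is 1 array and lines are means of 3. Rgs5 is 0.87 lower in old QSCs and 1.30 higher in old ASCs.

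Within old mice 5 of the 9 genes were lower at 60 hr than in QSCs and 0 were higher (17.8% of all genes higher, 11.7% lower). Rgs5 changed by -2.10 ± 0.05, Myh11 by -1.93 ± 0.10, Abcc9 by -1.56 ± 0.06, Tagln by -1.46 ± 0.06 and Kcnj8 by -1.29 ± 0.08. Acta2 was at 11.85, 11.81 and 11.88 at 60 hr in old mice, against 11.83, 11.82 and 11.84 in old QSCs, which overlapped (change 0.01 ± 0.04, adjusted p = 0.78), and Pdgfrb changed by -0.21 ± 0.06. Tested directly, the change at 60 hr was less negative in old than in young cells for 8 of 9 genes (6.81% of all genes higher, 2.16% lower), by 2.17 for Rgs5, 1.94 for Abcc9, 1.71 for Pdgfrb, 1.26 for Mcam, 1.22 for Kcnj8, 1.14 for Acta2, 1.14 for Tagln and 0.85 for Myh11. Cspg4 differed by 0.51, under the fold. These differences contain the QSC difference between the ages, which was -1.01 for Kcnj8 and -0.65 for Acta2, since the same QSC arrays enter both. For Kcnj8 the ages overlapped at 60 hr. The comparisons of age share arrays with those of time.

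Ranked over all 10 groups, young VCAM QSCs held the highest mean of 6 of the 9 genes. For Rgs5, Abcc9 and Kcnj8 the next group was old VCAM QSCs, and the arrays of both groups did not overlap. For Pdgfrb the next group was young VCAM cells at 36 hr, which overlapped. Cspg4 was highest in young VCAM cells at 36 hr, followed by young and old VCAM QSCs, with overlap between each neighbouring pair. Mcam and Acta2 were highest at 36 hr in YFP cells, Mcam without overlap with the next group and Acta2 overlapping with YFP cells at 84 hr. The lowest group was young VCAM cells at 60 hr for Rgs5, Mcam, Acta2 and Tagln, YFP cells at 60 hr for Abcc9, Pdgfrb and Cspg4, and YFP cells at 84 hr for Kcnj8 and Myh11, and apart from Rgs5, Pdgfrb and Mcam the lowest group overlapped with the one above it.

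The 9 genes were compared by their course over the 10 group means, given here as a description without a test, since all groups come from the same injury model and were normalized together. Among Rgs5, Abcc9, Kcnj8, Myh11 and Tagln r ranged from 0.85 (Kcnj8 with Tagln) to 0.98. Pearson's r was 0.98 for Rgs5 with Abcc9, 0.98 for Myh11 with Tagln, 0.97 for Rgs5 with Tagln and 0.94 for the neighbours Abcc9 and Kcnj8. Mcam had r = 0.89 with Rgs5, 0.85 with Tagln, 0.82 with Abcc9, 0.81 with Myh11 and 0.70 with Kcnj8. Pdgfrb and Cspg4 had r = 0.93 with each other. Acta2 stood apart from all 8 others, with r between 0.28 (Kcnj8 and Myh11) and 0.67 (Cspg4).

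**Figure D4:**
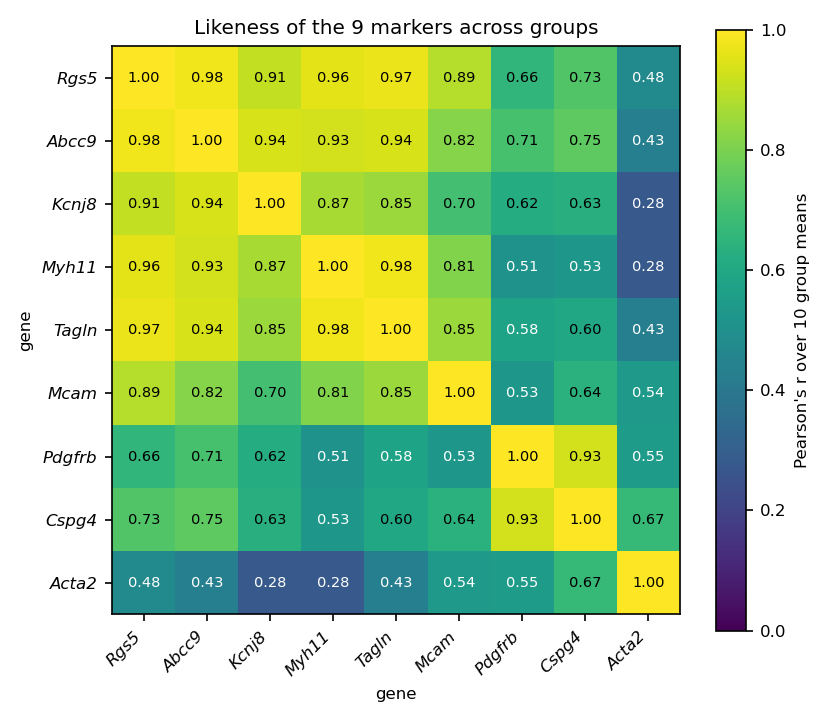
Pearson's r between pairs of the 9 genes (both axes) over 10 group means, as colour and as printed value. Rgs5, Abcc9, Kcnj8, Myh11 and Tagln are at 0.85 or above with each other, and Acta2 is at 0.67 or below with every other gene.

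Among all 19938 genes, those most like each of the 9 over the 10 group means were also listed. For Rgs5 these were Gucy1a2 (r = 0.987), a subunit of the soluble receptor for nitric oxide, Pear1 (0.986) and Abcc9 (0.982), and for Abcc9 they were Septin8 (0.99), Pear1 (0.983) and Rgs5. For Kcnj8 they were Htr7 (0.984), Ccdc85a (0.978) and Slc25a35 (0.978). For Mcam they were Esam (0.988) and Cdh5 (0.977), adhesion molecules of endothelium, and Gimap6 (0.975). The genes most like Myh11 were Chodl (0.994), Mcc (0.993) and Cldn1 (0.993), and those most like Tagln were Dpt (0.991), Abca8a (0.99) and Myh11 (0.985). Likeness was lower for Pdgfrb, with Copz2 (0.939), Cspg4 (0.935) and Naalad2 (0.923), and for Acta2, with C1qtnf3 (0.915), Serpinb9 (0.911) and Matn2 (0.905). Cspg4 had Lst1 (0.985), C1qtnf1 (0.948) and Selenon (0.943).

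Other genes of the same cell types were counted next to the set. Of 23 further pericyte genes measured, 11 were lower and 4 higher at 36 hr in young VCAM cells, 17 lower and 1 higher at 60 hr, and 16 lower and 3 higher at 84 hr, with medians of -0.46, -1.59 and -1.42. At 60 hr the matrix protein vitronectin (Vtn, -4.26), the ADP-ribosyltransferase gene Art3 (-3.56), the RGS protein gene Rgs4 (-3.23) and the Notch target Heyl (-3.08) were lowest. The paper names Heyl among genes specific to QSCs, so it is not a gene of pericytes alone. In YFP cells 7 of the 23 were lower and 5 higher at 36 hr, and 14 lower and 2 higher at 60 hr. As QSCs, 11 were higher and 2 lower in VCAM than in YFP cells, and the largest difference was the lower level of P2ry14 (-3.69). In old VCAM cells 8 were lower and 2 higher than in young as QSCs, and the largest change was a higher P2ry14 (1.97). At 60 hr 10 were higher and 0 lower in old cells, led by Steap4 (1.64), Itga1 (1.48), P2ry14 (1.42) and Anpep (1.36).

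Of 25 other smooth muscle contractile genes measured, 9 were lower and 4 higher at 36 hr in young VCAM cells, and 13 lower and 4 higher at 60 hr, with medians of -0.28 and -0.63. The myosin phosphatase inhibitor gene Ppp1r14a (-2.95), the integrin gene Itga8 (-2.95) and the calcium store gene Casq2 (-2.88) were lowest at 60 hr, while the actin crosslinker Actn1 was higher (1.83). At 84 hr 10 were lower and 4 higher than in QSCs, with a median of -0.38. Ppp1r14a was at -2.93 and Itga8 at -2.80 then, while Tpm1 and Tpm2, tropomyosins that striated muscle also makes, were higher by 1.99 and 2.07. Between 60 and 84 hr 3 of the 25 were higher and 0 lower, with Casq2 at 2.62. Cnn1 and Actg2, also markers of smooth muscle, were low throughout, with group means of at most 6.55 and 6.69, below all array medians. Des, also in this list, was not low, with group means of 10.32 to 11.52. With age 3 of the 25 were lower in old QSCs, and 0 differed at 60 hr.

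In young VCAM cells the PDGF and SRF genes changed from QSCs in both directions. Over all genes 13.2% were called higher and 9.72% lower at 36 hr, and 16.6% and 12.6% at 60 hr. Of 7 other PDGF ligand and receptor genes 4 were higher and 1 lower at 36 hr in young VCAM cells, among them Pdgfra, a fibroblast receptor, at 3.44. At 60 hr 1 was higher and 2 lower, with Pdgfrl at -2.96, and the ligand that recruits pericytes, Pdgfb, was higher at 84 hr by 0.89. Between 36 and 60 hr 5 of these 7 were lower at 60 hr and 1 was higher, with a median of -1.03. Of 12 genes of SRF, myocardin and their partners 2 were higher and 3 lower at 60 hr, with Tead2 at 1.71, Tead3 at -1.44, Smad3 at -1.31 and Klf4 at -1.28. Myocd, the smooth muscle cofactor, had group means of 5.62 to 6.09, below every array median.

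Close relatives of the members were read by their own probe sets. In young VCAM cells 16.6% of all genes were called higher and 12.6% lower at 60 hr, and 16.4% and 11.2% at 84 hr. Of 8 other R4 RGS genes 3 were lower and 1 higher at 60 hr, with Rgs4 at -3.23, Rgs2 at -2.41 and Rgs1, a gene of immune cells, at 0.94. Of 9 actin, transgelin and myosin relatives 3 were higher and 0 lower at 84 hr, namely the striated actins Actc1 (3.52) and Acta1 (3.21) and the non-muscle myosin Myh9 (0.74). Sequence shared between Acta2 and these actins leaves the level of Acta2 uncertain to the extent that probes cross-hybridise, which was not tested.

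Markers of other cell types moved in the same arrays, and their part in these results was not tested. Of 10 endothelial markers 9 were lower and 0 higher at 60 hr in young VCAM cells, and in YFP cells 9 were higher and 1 lower at 36 hr. Their mean level per array was 8.92 to 8.98 in young VCAM QSCs, 8.63 to 8.71 at 36 hr, 7.03 to 7.07 at 60 hr and 7.36 to 7.40 at 84 hr, and in YFP cells 8.91 to 9.10 in QSCs, 9.91 to 9.92 at 36 hr, 7.51 to 7.56 at 60 hr and 7.59 to 7.66 at 84 hr. In old VCAM cells it was 7.93 to 7.96 at 60 hr, against 9.01 to 9.04 in QSCs, and at 60 hr 7 of 10 were higher than in young cells. Over the 10 group means the endothelial level had r = 0.97 with Mcam, 0.91 with Rgs5 and Tagln, 0.88 with Myh11 and 0.84 with Abcc9. It had r = 0.69 with Kcnj8, 0.59 with Cspg4, 0.50 with Acta2 and 0.47 with Pdgfrb. Other lists had such likeness too. The level of the 23 other pericyte genes had r = 0.98 with Rgs5, 0.97 with Abcc9 and Tagln and 0.95 with Myh11. It had r = 0.90 with Kcnj8, 0.79 with Mcam, 0.74 with Cspg4, 0.71 with Pdgfrb and 0.48 with Acta2. Values for glial and SC markers are given below. As QSCs the sorts did not differ in the endothelial list, 0 of 10 called. Pecam1, the gene of CD31, which the VCAM sort excluded, had a group mean of 9.57 ± 0.05 in young VCAM QSCs (SD, n = 3).

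Macrophage markers were higher in 8 of 8 cases at every time after injury in both sorts. Their mean level at 60 hr was 9.87 to 9.98 in old VCAM cells, against 8.10 to 8.21 in young VCAM cells, and as QSCs it averaged 6.99 in old cells and was 6.67 to 6.74 in young cells. With age 8 of 8 were higher at 60 hr, in the same arrays in which the 6 mural genes were higher. Of 7 fibroblast markers measured 5 were higher at 36 hr in young VCAM cells and 6 were higher in VCAM than in YFP cells at 36 hr. Over the group means their level followed Pdgfrb (r = 0.74) and Cspg4 (0.67), and not Myh11 (0.02) or Kcnj8 (0.01). Of 4 glial markers 1 was lower at 60 hr, and their level had r = 0.93 with Myh11 and 0.86 with Rgs5. The glial group means ran only from 6.94 to 7.43, near the array medians of 7.03 to 7.16.

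**Figure D5:**
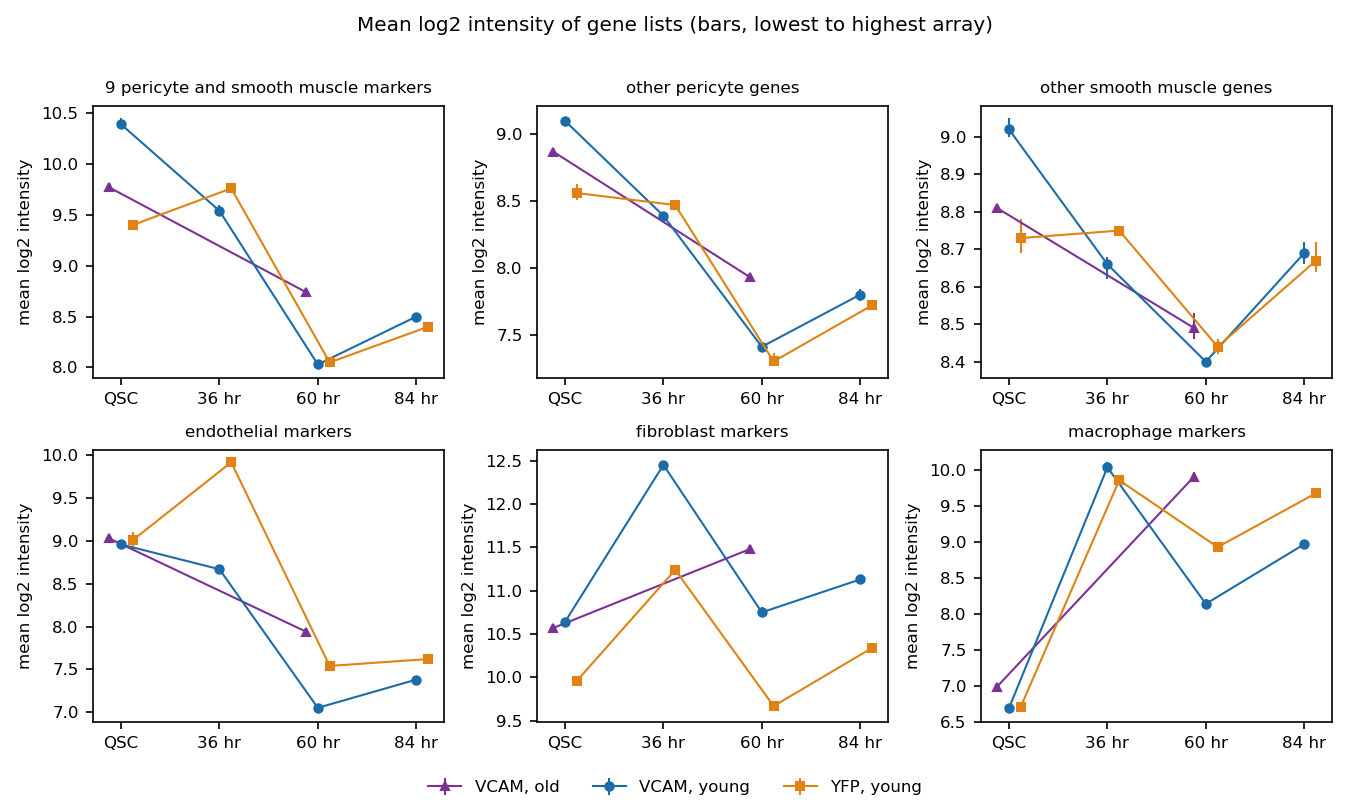
Mean log2 intensity over the genes of a list (y axis) in QSCs and at 36, 60 and 84 hr (x axis), with bars from the lowest to the highest of 3 arrays, for the 9 genes and 5 other lists. Triangles are old VCAM cells, circles young VCAM cells and squares YFP cells. The endothelial mean rises to between 9.91 and 9.92 at 36 hr in YFP cells, and the macrophage mean is higher after injury in every arm.

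The SC markers were checked in the same arrays. The mean level of 8 SC markers was 10.53 to 10.62 at 60 hr in young VCAM cells, against 11.99 to 12.04 in their QSCs, and 4 of 8 were lower at 60 hr. Over the 10 group means this level had r = 0.89 with Myh11, 0.88 with Tagln and 0.83 with Kcnj8. It had r = 0.82 with both Rgs5 and Abcc9, 0.60 with Mcam and 0.32 with Pdgfrb. Pax7 was at 11.11 ± 0.03 in old VCAM QSCs, 11.68 ± 0.07 in young VCAM QSCs and 10.98 ± 0.10 in YFP QSCs (SD, n = 3 each). Calcr, the calcitonin receptor and a marker of QSCs, fell to 6.89 at 60 hr in young VCAM cells, against 12.03 in their QSCs, and was at 6.94 at 84 hr in YFP cells, against 11.56 in their QSCs, both below every array median after injury. The arrays cannot say which cells of a sort carried the mural RNA.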

How the data were processed

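The arrays were Affymetrix Mouse Gene 1.0 ST. Their log2 intensities were used as deposited. Per the labels the authors processed the scans in Affymetrix Expression Console by RMA (background correction, quantile normalization and summary of the probes of a set), and the version of neither is stated in those notes. No further scaling was applied. Of 35556 probe sets, 21789 carried 1 gene symbol, 1621 several and 12146 none in the platform annotation. A gene was read by its brightest probe set with a single symbol, and each of the 9 markers had 1 such probe set. With limma (version 3.58.1, R 4.3.3), lmFit and eBayes estimated 10 group means over 30 arrays with 20 residual degrees of freedom. P-values, two-sided, were adjusted over all genes by Benjamini-Hochberg within each of 21 comparisons. The fit was tested on simulated data. The members, lists and comparisons were chosen with earlier results of these data known. All 9 members are named, with up to 4 genes with the largest called change of each other list and the 3 most similar genes per member. Exceptions, chosen after their values were seen or as known markers, are Pax7, Pecam1, Cnn1, Actg2, Des, Myocd, Kcnj11 and Abcc8, and the motifs searched. Alternatives were median centring, quantile normalization, leaving out dim genes, other fold thresholds, an intensity trend, the mean of probe sets, the compared groups alone, a replicate block and leaving out each array.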

Additional observations from a re-analysis of the deposited data

Results flagged for a closer look

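A total of 26 changes of the 9 markers differed between ages or between sorts by the interaction term of the limma model. Each is given as the difference of log2 changes from QSCs, and so contains the difference between the QSCs. In old minus young VCAM cells at 60 hr these were 2.17 for Rgs5, 1.94 for Abcc9, 1.22 for Kcnj8, 1.71 for Pdgfrb, 1.26 for Mcam, 1.14 for Acta2, 0.85 for Myh11 and 1.14 for Tagln (adjusted p at most 2.3e-05). In VCAM minus YFP cells at 36 hr they were -2.05 for Rgs5, -1.92 for Abcc9, -1.87 for Kcnj8, -0.93 for Pdgfrb, -1.47 for Mcam, -0.60 for Acta2, -0.81 for Myh11 and -0.73 for Tagln (adjusted p at most 4.3e-05).

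At 60 hr in VCAM minus YFP cells they were -1.96 for Rgs5, -1.73 for Abcc9, -1.95 for Kcnj8, -0.80 for Pdgfrb and -0.96 for Mcam (adjusted p at most 3.9e-08). At 84 hr they were -1.57 for Rgs5, -2.09 for Abcc9, -1.58 for Kcnj8, -1.09 for Pdgfrb and -0.63 for Cspg4 (adjusted p at most 0.00079). The call of Cspg4 at 84 hr was lost under median centring (-0.57) and without the third young VCAM QSC array (-0.55), the third YFP QSC array (-0.54) or the third 84 hr YFP array (-0.57). That of Acta2 at 36 hr was lost under median centring (-0.54) and without the first 36 hr VCAM array (-0.57). Single outlying arrays were not tested for.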

How the results depend on the processing

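No change of a member reversed under any alternative. Median centring, quantile normalization, the dim filter, an intensity trend, the mean of probe sets and the compared groups alone left each count of called members within 1.5 times its value. Without a fold threshold the counts were 8 for 36 hr against QSCs in YFP cells, 6 and 7 for 84 against 60 hr in VCAM and YFP cells, 9, 7, 3 and 4 for VCAM against YFP cells as QSCs and at 36, 60 and 84 hr, 8 for 60 hr against QSCs in old mice, and 9 for the response at 60 hr in VCAM minus YFP cells. With a fold of at least 2 they were 1 for 36 hr against QSCs in YFP cells, 1 for 84 against 60 hr in VCAM cells, 0 for VCAM against YFP cells at 84 hr, 1 for old against young cells as QSCs and 1 at 60 hr, and 4 and 3 for the responses at 36 and 60 hr in VCAM minus YFP cells. These counts thus depended on the fold threshold. The adjusted p limited them too where fewer than 9 genes passed without a fold threshold. Examples are the 3 and 4 genes for VCAM against YFP cells at 60 and 84 hr. Leaving out 1 array moved the counts by at most 1 (5 to 6 for old against young cells at 60 hr, 4 to 5 for VCAM against YFP QSCs, 7 to 8 for 60 hr against QSCs in YFP cells). In such refits 9 calls were gained and 6 lost, of Cspg4, Kcnj8, Acta2, Myh11, Rgs5 or Tagln near the fold threshold. Cspg4 had the VCAM and YFP QSC difference of 0.58 without the third YFP QSC array, and was not called then. Kcnj8 at 60 hr in YFP cells was called at -0.60 without the second YFP QSC array and at -0.62 without the third 60 hr array.

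Under quantile normalization Mcam at 60 hr in old mice (-0.70), Rgs5 in VCAM against YFP cells at 36 hr (-0.60), Kcnj8 at 60 hr (-0.59) and Myh11 at 36 hr (-0.63) in YFP cells were called, and Myh11 in old against young ASCs (0.58) was not. Median centring called Myh11 at 36 hr in YFP cells (-0.63), and dropped the response differences of Acta2 at 36 hr (-0.54) and Cspg4 at 84 hr (-0.57). It moved the median of all genes to 0.113 for 60 against 36 hr in VCAM cells, against 0.002 without it, where all 9 members stayed lower. Of 135 pairs of arrays with the same replicate number in different groups, 27 had deviations from the group means that correlated above 0.1 (mean 0.035), against 25 of 270 pairs with other numbers (mean -0.018). The share above 0.1 was thus larger for same-number pairs. The labels do not state that the numbers pair the arrays, and the main fit did not pair them. The replicate block changed none of the counts, such as 9 at 60 hr in young VCAM cells. Signal over background is a limit for genes near the array medians, such as Kcnj8 from 60 hr on (6.55 to 7.08).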
